A study of Arabidopsis thaliana with 30 samples.

Results

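Gene activity in seed of the lec1-1 mutant of Arabidopsis thaliana was compared with that in wild-type (WT) seed at the cotyledon stage, when the embryo has formed its seed leaves and storage of reserves is beginning. The members are the 4 ATH1 arrays whose titles name lec1-1 or WT cotyledon-stage seed, 2 of each genotype, of 30 samples in all. Both genotypes are of the Ws-0 background and came from plants kept under continuous light. The other ATH1 groups used here, with 2 arrays each, are lec1-1 seed 24 hours after fertilization and at the globular, mature green and post-mature green stages, and WT seed 24 hours after fertilization and at the mature green and post-mature green stages, with WT seedlings 3 days after imbibition. An older chip, AtGenome1, held lec1 and WT seed at 24 hours and at mid-maturation, with 1 sample a group hybridised to 2 arrays. The labels call the 2 ATH1 arrays of a group biological replicas and do not say how seed of the mutant was matched to a stage of the wild type.

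LEC1 (LEAFY COTYLEDON1) encodes a B subunit of the trimeric factor NF-Y, which binds CCAAT elements in promoters. It is known as a central regulator of embryo identity and of seed maturation, the phase in which embryos lay down storage proteins, oil and protective proteins. Embryos that lack it have cotyledons with leaf-like traits, fail to survive drying and switch on seedling programmes early. The gene itself and several well-known seed genes, such as ABI3 and the cruciferins, are not analysed here, because no probe set carried their name in the annotation used. The genotype labels were therefore not checked against the targeted gene.

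Each array gave 1 signal per probe set, a linear brightness that had been scaled to a common mean. A signal of 100 is used below as the level under which a probe set counts as dim. The median signal was 189.35 and 193.5 on the lec1-1 arrays and 202.05 and 194.4 on the WT arrays, and 59.7% and 61.2% of the probe sets reached 100 in lec1-1 against 62.1% and 60.4% in WT. Log2 values of the 2 arrays of a genotype correlated with an r of 0.974 in lec1-1 and 0.978 in WT, and values of the 2 genotypes with an r of 0.959 to 0.965. Both WT arrays state an array lot and neither lec1-1 array does, so that lot and genotype cannot be told apart at this stage. Whole seeds were measured, with embryo, endosperm and seed coat together, so that fewer cells of a type and less RNA per cell cannot be told apart.

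Seed of lec1-1 differed from WT seed in a small set of probe sets, most of which had lower signals in the mutant. Of 18459 probe sets tested, 131 were called by limma at an adjusted p under 0.05 (0.71%), 119 lower in lec1-1 seed (0.645%) and 12 higher (0.065%). The signals in lec1-1 seed lay beyond those in WT seed on both arrays for all 131 calls, as they did for 23.6% of all probe sets tested in the lower direction and 23.4% in the higher. At least a 2-fold difference separated 109 of the lower calls (0.59% of all tested) and 10 of the higher calls (0.0542%), and 36 of the lower and 4 of the higher calls reached 4-fold. The median difference was -1.66 on the log2(signal + 50) scale among the lower calls and 1.65 among the higher calls, which had been chosen by these values, against -0.0006 over all probe sets tested. In all, 1633 probe sets had an unadjusted p under 0.05. At the threshold itself, the last call was a probe set at -0.88 ± 0.20 (adjusted p = 0.0493), preceded by AT2G02780 at -1.09 ± 0.25 (0.049), and the first probe set left out was AT1G47540 at -2.06 ± 0.48 (0.0539).

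**Figure D1:**
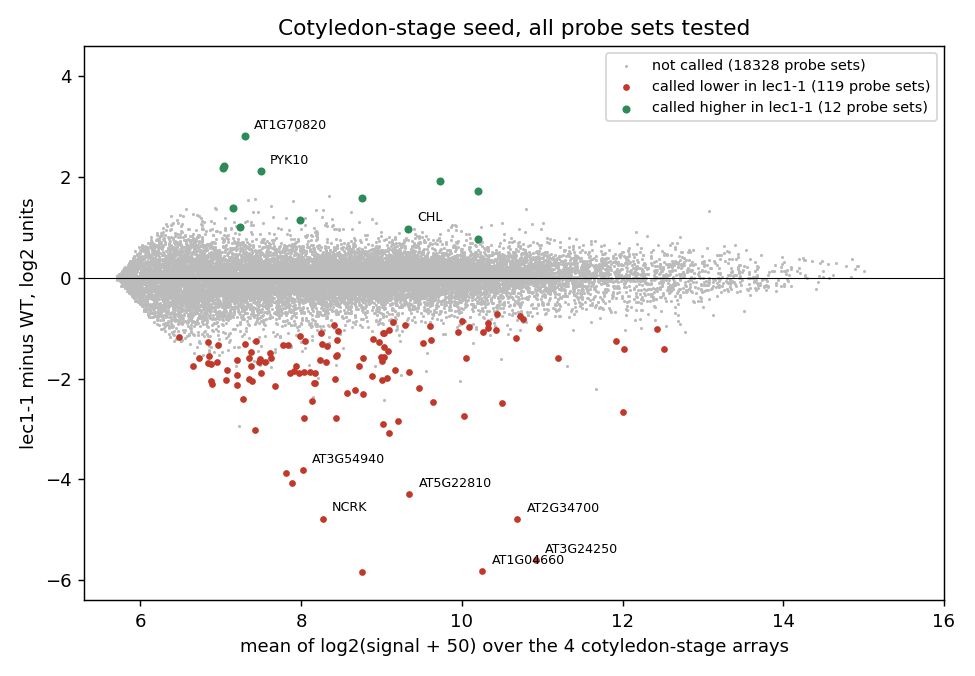
Each point is 1 of the 18459 probe sets tested, with the mean of log2(signal + 50) over the 4 cotyledon-stage arrays on the horizontal axis and the lec1-1 minus WT difference in log2 units on the vertical axis. The 119 lower calls reach down to -5.83, and the 12 higher calls stay below 3.

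The count differed between ways of fitting. Fitted on the 4 cotyledon-stage arrays alone, 326 probe sets passed, of which 82 were higher, and with signals raised to a floor of 100 before log2, 238 passed, of which 48 were higher. With the lot statement as a covariate 83 passed, and 32 of the 61 calls that name a gene ended, 28 lower and 4 higher (adjusted p 0.0504 to 0.392). Of the genes described below these were AT1G25530, AT1G26680, AT1G35190, AT2G02780, AT2G43800, AT3G08030, AT4G31060, AT5G14450, AT5G48360, AT5G65220, ATOEP16-2, GLR3.3, LTI30, SAH7, TET10 and the 4 higher genes. The lot term rests on 2 groups of other stages, lec1-1 24-hour and WT post-mature green seed. In each, 1 array states a lot and 1 does not. This term cannot separate lot from genotype at the cotyledon stage, either for calls that ended or for calls that passed. Leaving out 1 array left 69 calls without lec1-1 replicate 1, 45 without lec1-1 replicate 2, 57 without WT replicate 1 and 60 without WT replicate 2. Of the 131 calls, 27 passed in every one of 15 alternative settings, all of them lower, and 0 changed direction in any.

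Names were available for 57 of the lower and 4 of the higher calls. The named genes are set out by role below, a grouping made by hand. No share over all probe sets tested stands behind a group, except where a family share is given. Genes for secreted and cell wall proteins were among those with large drops. The order of the drops depends on the offset, since with log2(signal + 1) the receptor-like kinase gene NCRK, described below, comes first at -7.54, before AT1G04660 at -6.35. AT1G04660, for a glycine-rich protein, gave signals of 152 and 81.1 in lec1-1 seed, against 8588 and 9729.5 in WT seed (-5.82 ± 0.56 log2, adjusted p = 7.3e-06). A second glycine-rich protein gene, AT3G24250, gave 160 and 322 in lec1-1 seed and 14259 and 12775 in WT seed (-5.60 ± 0.47, 7.69e-07). AT2G34700, which codes for a secreted protein with an Ole e 1 domain, a domain first described in a pollen allergen, gave 352 and 196 in lec1-1 seed, against 9235 and 8099 in WT seed (-4.79 ± 0.30, 2.32e-08). Each of these genes was among the brighter signals of WT seed at this stage, and the mutant arrays lay far below both WT arrays for all 3.

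AT5G59170, for a proline-rich protein of the extensin type that builds cell walls, gave 339.9 and 369 in lec1-1 seed and 3129 and 2252 in WT seed (-2.74 ± 0.43, 0.00205). Its call ended without WT replicate 1 (adjusted p = 0.0531). SAH7, another Ole e 1 type gene, averaged 1305 in lec1-1 and 4027 in WT (-1.59 ± 0.34, 0.0296). Its call ended with any 1 of the 4 arrays left out (adjusted p 0.146 to 0.305).

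Enzymes acting on lipids and proteins were among the lower calls too. GDSL lipases are esterases of plant surfaces and seed oil metabolism, and the 4 described here were met among the lower calls, with no count of how many such genes were tested. AT5G22810 gave 98.1 and 96.1 in lec1-1 seed, against 3078 and 2616 in WT seed, at least 28.4-fold lower (adjusted p = 2.24e-07), where the bound sets the dim group at a signal of 100. AT5G08460 gave 192 and 98.4 in lec1-1 seed and 1404 and 1350.3 in WT seed (-2.91 ± 0.37, 0.000219). AT1G71691 gave 488 and 645 in lec1-1 seed and 4079 and 2794 in WT seed (-2.49 ± 0.28, 3.77e-05). The 4th, AT5G14450, differed less, with means of 636 in lec1-1 and 1386 in WT (-1.07 ± 0.21), and its call ended with any 1 of the 4 arrays left out (adjusted p 0.0604 to 0.289).

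Among proteases, AT3G54940, for a papain-type cysteine protease, gave 14.4 and 24.9 in lec1-1 seed, against 1049.6 and 815 in WT seed, at least 9.25-fold lower (adjusted p = 7.7e-08). AT1G09750, for an aspartyl protease, averaged 84.1 in lec1-1 and 412 in WT (-1.85 ± 0.29, 0.00202), and its call ended without lec1-1 replicate 2 or WT replicate 2 (adjusted p 0.0584 to 0.0878). The protease families were not counted either, since the annotation used gives most of their genes by locus alone.

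Lower calls also included genes for membrane proteins and signalling. NCRK, a receptor-like kinase gene, gave 3.6 and 14.4 in lec1-1 seed, against 1819 and 1341 in WT seed, at least 15.6-fold lower (adjusted p = 7.7e-08). AT3G27870, for a P-type ATPase of the family that moves lipids across membranes, gave 108 and 175 in lec1-1 seed and 1694 and 1407 in WT seed (-3.08 ± 0.25, 4.95e-07). AtVEX1, a sugar transporter gene of the SWEET family also known as SWEET5, gave 67.7 and 34.8 in lec1-1 seed, against 606 and 678 in WT seed, at least 6.41-fold lower (adjusted p = 0.00132). It was the single call among 17 SWEET-named probe sets tested (5.88%, against 0.645% lower of all tested), whose median difference was -0.07.

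Tetraspanins are small proteins that cross the membrane 4 times and organise it into domains. Of 13 tested that were found by gene name, 2 were called lower (15.4%, against 0.645% of all tested), with a median over the 13 of -0.06. TET15 gave 68.6 and 116 in lec1-1 seed, against 588 and 507 in WT seed (-2.09 ± 0.40, 0.0121). TET10 averaged 468 in lec1-1 and 1161 in WT (-1.23 ± 0.24, 0.0127). The TET15 call ended with any 1 array left out (adjusted p 0.0644 to 0.176), and the TET10 call without lec1-1 replicate 2, WT replicate 1 or WT replicate 2 (0.0693 to 0.255). The formin genes AT5G48360 (-1.58 ± 0.27, 0.00414) and AT2G43800 (-1.10 ± 0.23, 0.0227), whose proteins nucleate actin filaments, were also lower. The AT2G43800 call ended with any 1 array left out (0.129 to 0.244), and that of AT5G48360 without lec1-1 replicate 2, WT replicate 1 or WT replicate 2 (0.0613 to 0.0786).

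Other called genes of transport and sensing had smaller differences. The amino acid transporter gene AT1G25530 was at -1.59 ± 0.27, the glutamate receptor-like channel gene GLR3.3 at -1.33 ± 0.30, and the leucine-rich repeat kinase gene AT2G02780 at -1.09 ± 0.25, all called lower. The calls of GLR3.3 (adjusted p 0.0892 to 0.413) and AT2G02780 (0.0625 to 0.607) ended with any 1 array left out, and that of AT1G25530 without lec1-1 replicate 2 or WT replicate 1 (0.12 to 0.17).

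Genes of metabolism and hormone conjugation followed. GSTU20, a glutathione transferase of the tau class, gave 169 and 114 in lec1-1 seed, against 750.5 and 921 in WT seed (-2.22 ± 0.33, 0.00135), and its call ended without lec1-1 replicate 2 (adjusted p = 0.0512). It was the single call among 10 glutathione transferases tested that were found by gene name (10%, against 0.645% of all), whose median was -0.11. The cytochrome P450 gene CYP71B5 gave 10.3 and 4.2 in lec1-1 seed, against 199.8 and 195 in WT seed, at least 1.97-fold lower (adjusted p = 0.0128). The signals of both genes in the mutant lay below both WT arrays, and CYP71B5 was dim on both mutant arrays.

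Sugar conjugation switches plant hormones off, and genes for a cytokinin and an auxin glucosyltransferase were called. UGT76C2, the cytokinin enzyme, averaged 31.9 in lec1-1 and 281 in WT, at least 2.78-fold lower (adjusted p = 0.0456). UGT84B1, the auxin enzyme, averaged 87.8 in lec1-1 and 451 in WT (-1.87 ± 0.39, 0.0266). The oxygenase gene AT1G35190 averaged 89.7 in lec1-1 and 547 in WT, at least 5.39-fold lower (adjusted p = 0.000983), and passed with each array left out but not with the lot covariate (adjusted p = 0.0504). The calls of UGT76C2 (adjusted p 0.174 to 0.464), UGT84B1 (0.135 to 0.267) and CYP71B5 (0.093 to 0.171) ended with any 1 array left out.

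Called genes for regulators of other genes or proteins were few. AT5G62800, for a RING protein of the SINA type that marks other proteins for breakdown, averaged 121 in lec1-1 and 647 in WT (-2.01 ± 0.22, 3.37e-05). AT1G26680, of the B3 family of DNA-binding proteins, averaged 16.9 in lec1-1 and 223 in WT, at least 2.18-fold lower (adjusted p = 0.0279). AT4G31060, of the AP2/ERF family, averaged 177 in lec1-1 and 486 in WT (-1.24 ± 0.26, 0.0268). The AT5G62800 call held with each array left out, while those of AT1G26680 (adjusted p 0.0992 to 0.384) and AT4G31060 (0.171 to 0.219) ended with any 1 array left out.

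Genes for plastid proteins were also among the lower calls. AT5G65220, for a ribosomal protein of the plastid, averaged 1029.9 in lec1-1 and 2419.9 in WT (-1.19 ± 0.26, 0.0323). ATOEP16-2, for a channel of the outer plastid envelope made in seeds, was near the detection level, with means of 9.35 in lec1-1 and 85.8 in WT (adjusted p = 0.0323). The calls of AT5G65220 (adjusted p 0.176 to 0.284) and ATOEP16-2 (0.0508 to 0.369) ended with any 1 array left out, and that of ATOEP16-2 also with a floor of 100, which takes its difference to -0.06.

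The other named genes with the largest drops have no role given here. AT4G22400 gave 4.4 and 33.3 in lec1-1 seed, against 300.1 and 309.7 in WT seed, at least 3.05-fold lower (adjusted p = 0.00347). Its call ended without lec1-1 replicate 1, WT replicate 1 or WT replicate 2 (adjusted p 0.0517 to 0.0843). AT1G65090 gave 299.6 and 266 in lec1-1 seed and 1470.3 and 1457 in WT seed (-2.19 ± 0.22, 8.45e-06), and its call held with each array left out.

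**Figure D2:**
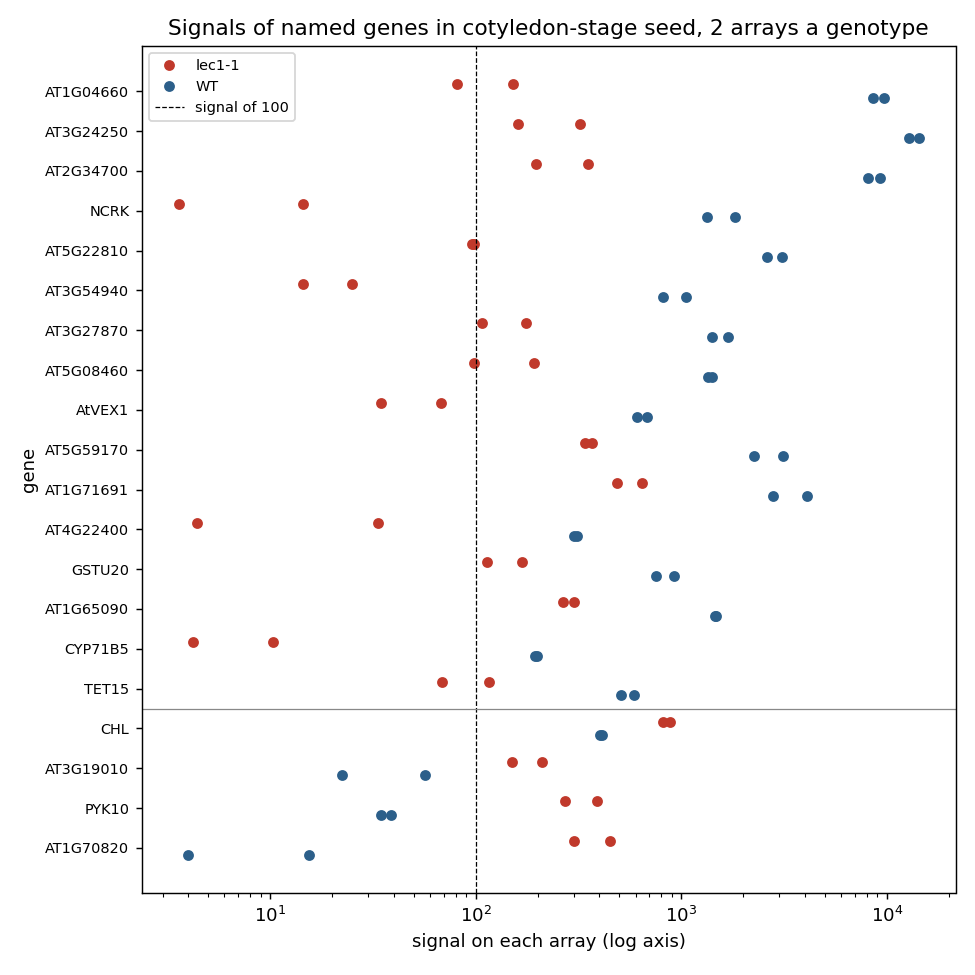
Signals on a log axis for the 16 named genes with the largest drops (above the grey line) and the 4 named higher calls (below it), with the 2 lec1-1 arrays in red above the 2 WT arrays in blue for each gene and a dashed line at a signal of 100. For every gene the 2 genotypes are apart, and 6 of the 16 lower genes have both lec1-1 points left of the dashed line.

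Only 4 of the 12 higher calls name a gene, and 3 of these were dim on both WT arrays. AT1G70820, for an enzyme of the phosphoglucomutase type, gave 301 and 448 in lec1-1 seed, against 4 and 15.5 in WT seed, at least 3.67-fold higher (adjusted p = 0.000915). PYK10, the beta-glucosidase that fills endoplasmic reticulum bodies of roots and seedlings, gave 388 and 273 in lec1-1 seed, against 38.7 and 34.7 in WT seed, at least 3.25-fold higher (adjusted p = 0.014). AT3G19010, for a 2-oxoglutarate-dependent oxygenase, gave 150.2 and 210.1 in lec1-1 seed, against 22.5 and 56.6 in WT seed, at least 1.78-fold higher (0.0119). CHL, a lipocalin gene whose protein guards plastid membranes, gave 884 and 818 in lec1-1 seed and 402 and 414 in WT seed (0.98 ± 0.22, 0.0425).

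All 4 calls ended with the lot covariate, that of AT1G70820 at 2.35, adjusted p = 0.0856, though it passed with each array left out. The calls of PYK10 (adjusted p 0.0788 to 0.184) and CHL (0.248 to 0.305) ended with any 1 array left out, and that of AT3G19010 without lec1-1 replicate 2 or WT replicate 1 (0.222 to 0.244). With an array left out, the log2(signal + 50) difference was still 1.90 to 2.34 for PYK10 and 0.92 to 1.03 for CHL. In WT seedlings, whose values do not enter the cotyledon-stage difference, PYK10 gave 17084 and 18279, AT1G70820 1442 and 900.2, CHL 2977 and 2268 and AT3G19010 533 and 553. Both seedling arrays lay above both WT cotyledon-stage arrays for 11 of the 12 higher calls, a count in part fixed by the choice, since the WT cotyledon arrays were low by selection. Called against WT seed at 24 hours, 8 of the 12 were higher in seedlings (66.7%, against 21.6% of all probe sets tested) and 2 lower (16.7%, against 31%).

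The remaining arrays show what the 131 calls did before and after the cotyledon stage. At 24 hours after fertilization 1 of the 119 lower calls was called lower in lec1-1 (0.840%, against 0.114% of all probe sets tested) and 0 higher (0.00542% of all), with a median difference of 0.06. That gene was AT3G27870, with 60.2 and 92.4 in lec1-1 seed and 718 and 557 in WT seed at 24 hours. At the mature green stage 59 of the 119 were called lower (49.6%, against 13% of all) and 16 higher (13.4%, against 15.7%), with a median of -0.78. At the post-mature green stage 48 were called lower (40.3%, against 20.5% of all) and 35 higher (29.4%, against 23.7%), with a median of -0.21. Of the 12 higher calls, 0 were called at 24 hours, 9 were called higher at mature green and 10 at post-mature green, and 0 lower at any of these stages.

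The lower calls split by their level in WT seed at 24 hours, a division made after the values were seen. Both WT 24-hour arrays were dim for 43 of the 119, both were at 100 or more for 66, and 10 lay on both sides. For the 43 that were dim, the median signal over group means was 29.8 in lec1-1 and 26.15 in WT at 24 hours, and 47.2 in lec1-1 and 381.65 in WT at the cotyledon stage. At mature green it was 237.4 in lec1-1 and 1602.85 in WT, and at post-mature green 271.5 in lec1-1 and 867.85 in WT. At mature green 31 of the 43 were called lower in lec1-1 (72.1%, against 13% of all probe sets tested) and 0 higher (15.7% of all). At post-mature green 29 were called lower (67.4%, against 20.5%) and 3 higher (6.98%, against 23.7%).

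For the 66 that were already on at 24 hours, values in later seed lay on both sides of the wild type. Their median signal was 632.5 in lec1-1 and 629.2 in WT at 24 hours, 187.8 in lec1-1 seed at the globular stage, and 236.5 in lec1-1 and 811.9 in WT at the cotyledon stage. At mature green it was 718 in lec1-1 and 951.0 in WT, and at post-mature green 794.2 in lec1-1 and 387.8 in WT. At mature green 22 of the 66 were called lower (33.3%, against 13% of all) and 16 higher (24.2%, against 15.7%). At post-mature green 13 were called lower (19.7%, a share near the 20.5% of all) and 32 higher (48.5%, against 23.7%). The share of higher calls at post-mature green in the 66 and in the 43 was not compared by a test.

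**Figure D3:**
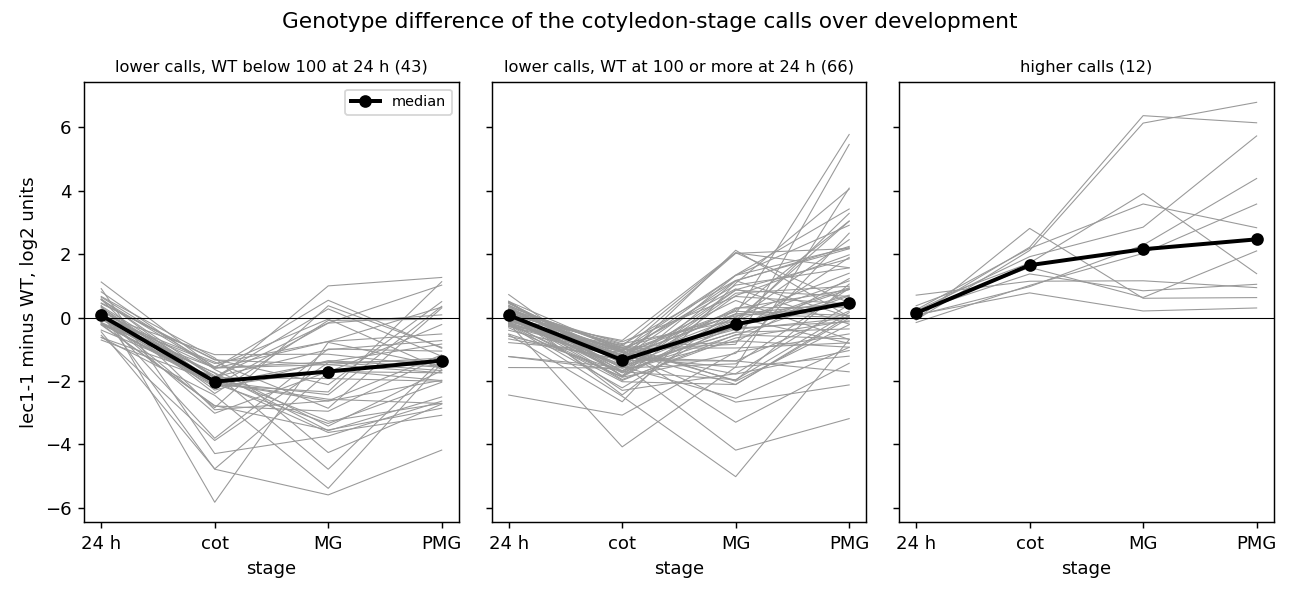
Lec1-1 minus WT difference in log2 units at 24 hours, cotyledon (cot), mature green (MG) and post-mature green (PMG) stages, with 1 grey line per probe set called at the cotyledon stage and the median in black. The 43 lower calls dim in WT at 24 hours stay mostly below 0, the 66 that were on at 24 hours spread to both sides, and the 12 higher calls stay above 0 at mature green and post-mature green.

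Some genes stayed low in the mutant at every stage measured. For 5 of the 119 lower calls all 10 lec1-1 arrays were below 100, and for 38 the 8 lec1-1 arrays of other stages stayed below the lower WT cotyledon-stage array. Selection on low lec1-1 and high WT cotyledon-stage arrays favours both features, and their shares over all probe sets tested were not counted. AT5G22810 did not exceed 102.8 on any lec1-1 array, while WT seed gave 1594 and 2357 at mature green and 516 and 1156 at post-mature green. AtVEX1 did not exceed 73.7 on any lec1-1 array, while WT seed gave 415 and 1039 at mature green. TET15 reached 77.9 and 154 in lec1-1 seed and 1399 and 1806 in WT seed at mature green (-3.34 ± 0.40, adjusted p = 3.76e-06). For these genes the genotypes did not overlap at the cotyledon, mature green or post-mature green stage.

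Others had a short peak in WT seed on ATH1 that was lower or missing in the mutant. The WT cotyledon-stage arrays lay at least 2-fold above every other WT array for 8 of the 119 lower calls, against 373 of all 18459 tested, a feature that selection on high WT cotyledon arrays favours. AT3G24250 gave 141 and 28.7 in WT seed at 24 hours, 14259 and 12775 at the cotyledon stage, 400.5 and 1291 at mature green and 179 and 215 at post-mature green. In lec1-1 seed its highest value was 762.3, on a globular-stage array. NCRK gave 109 and 166 in WT seed at mature green, far under its cotyledon-stage signal. In lec1-1 seed it did not exceed 59.7 at any ATH1 stage. UGT84B1 averaged 63.1 at 24 hours, 451 at the cotyledon stage and 102 at mature green in WT seed, with an average of 29.8 in lec1-1 seed at mature green.

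Another pattern was a late rise in the mutant. Both mature green or both post-mature green arrays of lec1-1 reached the WT cotyledon level for 56 of the 119 lower calls, among them 20 of the 43 that were dim in WT at 24 hours. The share of all probe sets tested that did so was not counted, so these counts do not set the calls apart. AT3G54940 gave 11100.3 and 11564 in lec1-1 and 27610.3 and 18481 in WT seed at mature green (-0.99 ± 0.27, 0.00824), and 24456 and 14854 in lec1-1 and 38586 and 41062 in WT at post-mature green. The mutant arrays were dim at the cotyledon stage and bright at both later stages, still below WT. AT5G59170 gave 37233 and 21709 in lec1-1 and 29071 and 12775 in WT seed at mature green, where the values overlap and the gene was not called (adjusted p = 0.365). AT1G65090 rose in the mutant to 4244 and 5910 at mature green, against 18387 and 13732 in WT seed (-1.66 ± 0.22, 1.08e-05).

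Further genes had a late rise in the mutant. LTI30, a dehydrin gene whose protein protects membranes in dry and cold tissue, averaged 80.5 in lec1-1 and 443 in WT at the cotyledon stage, at least 4.34-fold lower (adjusted p = 0.00248). At mature green it averaged 401 in lec1-1 and 319.6 in WT and was not called (adjusted p = 0.548). At post-mature green the averages were 1185 in lec1-1 and 2805 in WT (-1.22 ± 0.30, 0.00285). Its cotyledon-stage call ended without lec1-1 replicate 2 or WT replicate 1 (adjusted p 0.0512 to 0.0765). ATOEP16-2 averaged 6848 in lec1-1 and 15873 in WT at mature green (-1.16 ± 0.25, 0.00183). AT5G62800 stayed far behind, with 664 in lec1-1 and 8769.9 in WT at mature green (-3.63 ± 0.22, 1.21e-09).

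In a 4th pattern the genes dipped in the mutant and later exceeded the wild type. AT1G09750 averaged 4075 in lec1-1 and 2454 in WT seed at 24 hours, and 86.2 in lec1-1 seed at the globular stage, which has no WT array. Its WT signal also dipped, to 344 on the lower WT cotyledon-stage array, so the dip of AT1G09750 was not confined to the mutant. At mature green AT1G09750 averaged 3483 in lec1-1 and 3298 in WT, and at post-mature green 3075 in lec1-1 and 6.45 in WT, at least 30.5-fold higher (adjusted p = 2.67e-11). The gene was dim on both WT arrays at post-mature green and bright on both lec1-1 arrays. GSTU20 gave 1646 and 2697 in lec1-1 seed and 160.2 and 277 in WT seed at post-mature green (3.04 ± 0.33, 6.34e-07). The formin genes AT2G43800 (3.05 ± 0.23) and AT5G48360 (at least 3.06-fold) and the plastid ribosomal gene AT5G65220 (3.43 ± 0.26) were also called higher there.

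The genotypes lay further apart for PYK10 and CHL at later stages. PYK10 gave 8510.2 and 7278 in lec1-1 and 60.1 and 64.9 in WT seed at mature green, and 8042 and 8681 in lec1-1 and 10.2 and 45.4 in WT at post-mature green. CHL gave 2182 and 1719 in lec1-1 and 334 and 382 in WT seed at mature green (2.29 ± 0.22, 2.85e-07). AT1G70820 was high in the mutant at the cotyledon stage and dim before and after it, with 47.9 and 79.8 in lec1-1 and 17.3 and 31.3 in WT seed at mature green.

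**Figure D4:**
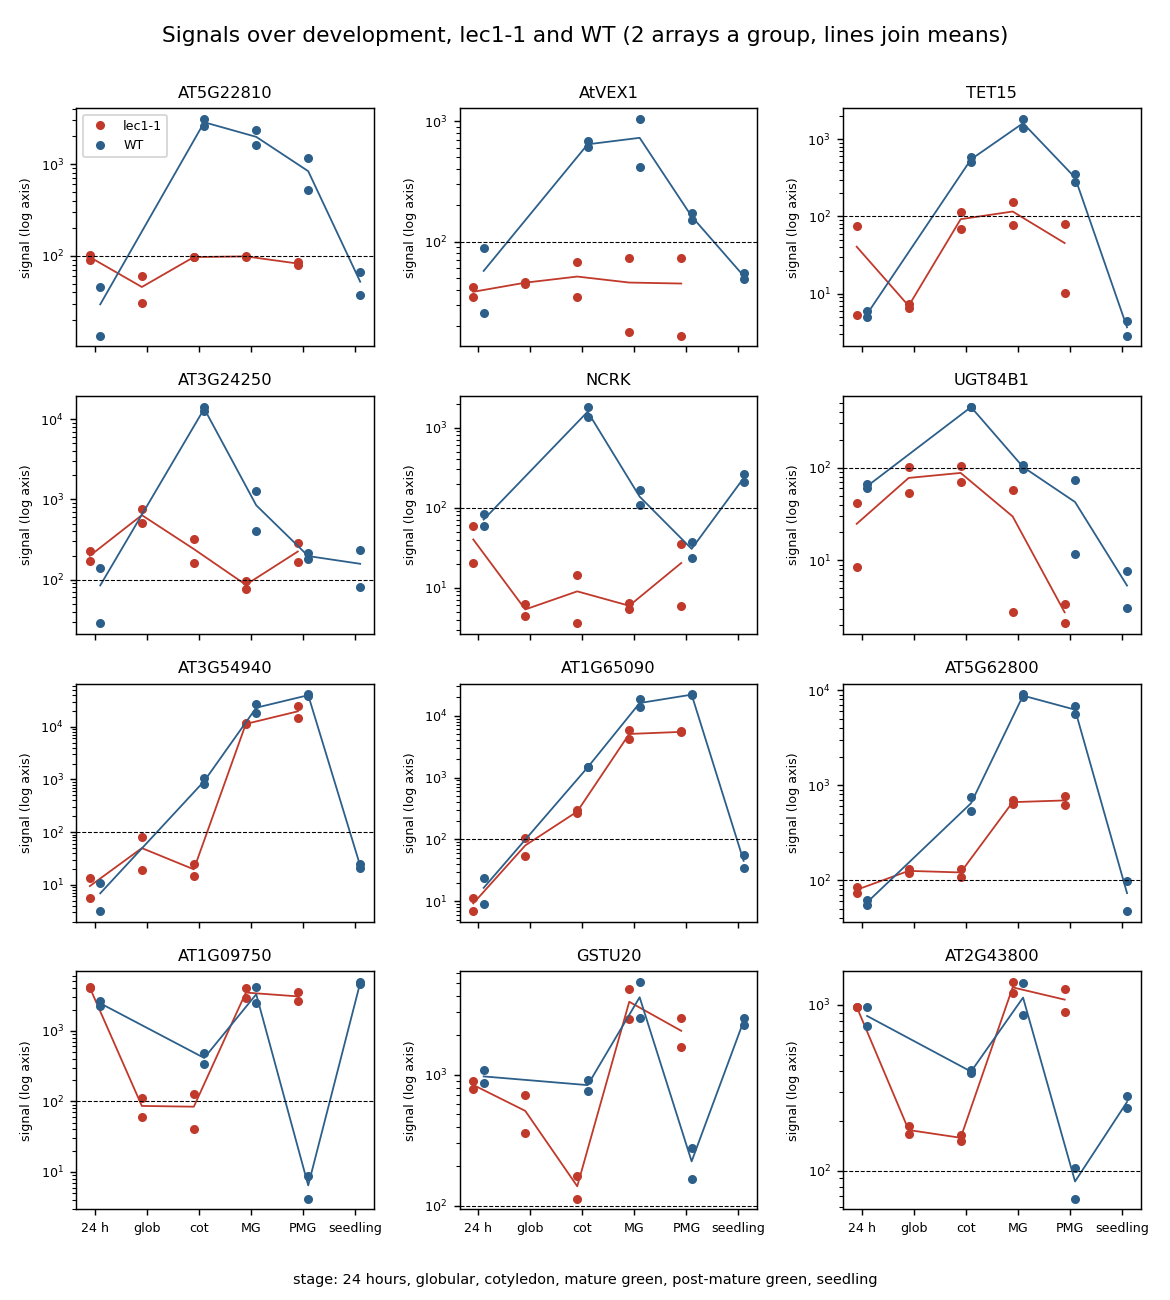
Signals on log axes over development, from 24 hours to the globular (glob), cotyledon (cot), mature green (MG) and post-mature green (PMG) stages and seedlings, for 12 lower calls in lec1-1 (red, drawn left) and WT (blue), with 1 point per array, lines through means and a dashed line at 100. The top row shows genes that stay low in the mutant, the next a WT peak at the cotyledon stage, the third a late rise in lec1-1 and the last a dip in lec1-1 with values above WT at PMG. For AT1G09750, in the last row, WT also dips at the cotyledon stage.

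The change of the lec1-1 effect from stage to stage was tested as an interaction. Between 24 hours and the cotyledon stage it passed for 58 probe sets (0.314%), 16 with a higher (0.0867%) and 42 with a lower difference (0.228%) at the cotyledon stage. Between the cotyledon and mature green stages it passed for 3414 (18.5%), 1971 with a higher (10.7%) and 1443 with a lower difference (7.82%) at mature green. Leaving out 1 array left between 26 and 38 of the first kind.

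Wild-type stage classes were drawn from arrays whose values do not enter the cotyledon-stage difference, though they enter the filter and the estimate of the spread. Of 1029 probe sets at least 4-fold higher in WT mature green than in WT 24-hour seed, 51 were called lower in lec1-1 at the cotyledon stage (4.96%) and 0 higher. They make up 42.9% of the lower calls, against 5.57% of all probe sets tested. The median difference over the 1029 probe sets of this class was -0.03, with 85 at least 2-fold lower and 11 at least 2-fold higher, called or not. Of 669 probe sets at least 4-fold lower in WT mature green than in WT 24-hour seed, 2 were called lower (0.299%, against 0.645% of all tested). Of these 669, 3 were called higher (0.448%, against 0.065%). Of 1438 probe sets (7.79% of all) at least 4-fold higher in WT seedlings than in WT 24-hour seed, 16 were called lower (1.11%) and 5 higher (0.348%), with a median of -0.08.

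Gene lists of seed biology cover only the members that the annotation names. Tests reached 7 of 15 storage protein genes listed and 5 of 14 oil body genes. They reached 5 of 18 genes of chlorophyll synthesis and 11 of 56 of photosynthesis. Only 57 of the 119 lower and 4 of the 12 higher calls carry a name, so unnamed calls may belong to these lists. Of the 77 list probe sets tested, 1 was called, which was higher (1.3%, against 0.065% of all tested), and 0 lower (0.645% of all). These counts are too small to set the lists apart from all probe sets. Of 7 storage protein genes tested, 0 were called, with a median of -0.26. The vicilin- or cupin-type gene AT4G36700 gave 1222 and 1452 in lec1-1 seed and 4302 and 4865 in WT seed (-1.74 ± 0.45, adjusted p = 0.104), and 4 of the 7 were dim on all 4 arrays. Of 5 oil body protein genes 0 were called, with a median of -0.74 that ran from -1.85 to -0.05 over the settings tried. OLEO3, an oleosin that coats oil droplets, gave 1510.2 and 1434 in lec1-1 seed and 8538 and 5690.3 in WT seed (-2.21 ± 0.56, 0.087). The oleosin-family gene AT3G01570 gave 281 and 268 in lec1-1 seed and 918 and 808 in WT seed (-1.49 ± 0.35, 0.0578).

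For AT4G36700, OLEO3 and AT3G01570 both lec1-1 arrays lay below both WT arrays, as for 23.6% of all probe sets tested, and none of the 3 passed. Of 3 genes of fatty acid and triacylglycerol synthesis 0 were called (median -0.49), with FaTA, a thioesterase that releases fatty acids in the plastid, at -0.58 ± 0.22 (adjusted p = 0.399). Of 22 genes for late embryogenesis abundant proteins, which protect drying cells, 0 were called, 18 were dim on all 4 arrays, and the median of 0.01 changed sign in 5 of 15 alternative settings. Of 4 seed transcription regulators 0 were called (median 0.20). BBM, which promotes embryo growth, gave 21.5 and 28.9 in lec1-1 seed and 95.3 and 83.7 in WT seed, dim on all 4 arrays. AGL18, a MADS factor of embryos, gave 2126 and 2228 in lec1-1 seed and 1663 and 1608 in WT seed (0.40 ± 0.23, 0.682).

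None of the 5 chlorophyll synthesis or 11 photosynthesis genes tested by name passed, and the medians of both lists lay below 0. Of 5 genes of chlorophyll synthesis all 5 had both lec1-1 arrays below both WT arrays, against 23.6% of all probe sets tested. Their median was -0.89 (range -1.02 to -0.74 over the settings tried). CHLM, for a methyltransferase of chlorophyll synthesis, gave 701 and 845 in lec1-1 seed and 1367 and 1645 in WT seed (-0.92 ± 0.22, adjusted p = 0.0721). PORB, which reduces protochlorophyllide in light, gave 1495 and 1302 in lec1-1 seed and 2222 and 3271 in WT seed (-0.93 ± 0.27, 0.175). LIL3:2, which anchors a late enzyme of the pathway, gave 547 and 469 in lec1-1 seed and 879.9 and 771 in WT seed (-0.65 ± 0.19, 0.169). At 24 hours the same genes were at like levels in both genotypes, with 6265 and 4448 for PORB in lec1-1 and 4768 and 4143 in WT seed.

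Of 11 photosynthesis genes 0 were called, 8 had both lec1-1 arrays below both WT arrays (against 23.6% of all tested), and the median was -0.35. The antenna gene LHCB4.3 gave 1542 and 1432 in lec1-1 seed and 2632 and 2301 in WT seed (-0.71 ± 0.22, 0.196), and LHCB4.2 gave 865 and 537 in lec1-1 seed and 993 and 1431 in WT seed (-0.76 ± 0.32, 0.482). At mature green the chlorophyll synthesis genes had a median of 0.75 and the photosynthesis genes one of -1.10. Single chlorophyll synthesis genes lay on both sides of 0 there, with LIL3:2 at 2.35 and CHLM at -0.91.

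**Figure D5:**
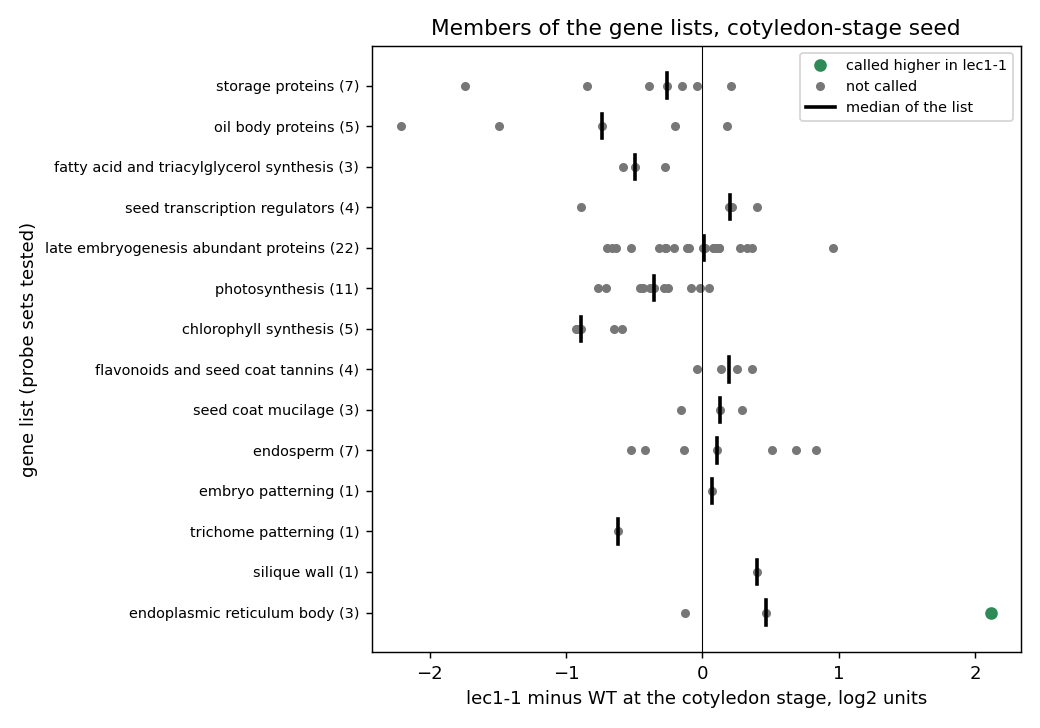
Lec1-1 minus WT difference at the cotyledon stage in log2 units for each member tested of 14 gene lists, with the number tested in brackets, the median as a black bar and the single call, PYK10, in green. The 5 chlorophyll synthesis genes lie between -0.93 and -0.59, and the seed coat and flavonoid genes lie near 0.

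Markers of other seed parts were measured beside these differences. Of 4 flavonoid and seed coat tannin genes 0 were called, and their summed signal was 38097 and 39511 in lec1-1 seed, against 34253 and 30564 in WT seed. BAN, an enzyme gene of seed coat tannins, gave 16877 and 16687 in lec1-1 seed and 15821 and 14736 in WT seed (0.14 ± 0.33), and DFR gave 20631 and 22000.4 in lec1-1 seed and 17775 and 15314 in WT seed (0.37 ± 0.26). Of 3 seed coat mucilage genes 0 were called, with a sum of 42207 and 46060 in lec1-1 seed, against 40102 and 36803 in WT seed. DELTA-VPE, a protease gene of the inner seed coat, gave 23242 and 26506 in lec1-1 seed and 22951 and 17953 in WT seed. Both sums were higher on the 2 lec1-1 arrays than on the 2 WT arrays, and their part in the lower calls was not tested.

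Of 7 endosperm genes 0 were called, and their sums overlapped, at 1030.6 and 861 in lec1-1 seed and 939 and 762 in WT seed. AGL62, a regulator of early endosperm, was dim on all 4 arrays, with 88.2 and 74.6 in lec1-1 seed and 46.9 and 5.7 in WT seed. MPC, which is imprinted in endosperm, gave 165 and 117 in lec1-1 seed and 82 and 54.5 in WT seed (adjusted p = 0.504). ALC, a fruit opening gene that marks the silique wall, gave 963 and 1039.7 in lec1-1 seed and 739.7 and 751 in WT seed (0.40 ± 0.17, 0.476). PHV, a leaf polarity regulator of the embryo, gave 1052 and 1029 in lec1-1 seed and 928 and 1053 in WT seed, and the trichome gene TRY was dim on all 4 arrays.

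PYK10 was the single call among 3 genes of the endoplasmic reticulum body. NAI2, which builds that body, gave 60.3 and 84.5 in lec1-1 seed and 56.6 and 22.7 in WT seed, and NAI1, the regulator of both, gave 4.9 and 28.1 in lec1-1 seed and 15.3 and 28.1 in WT seed. Both were dim in both genotypes at this stage. At mature green NAI2 gave 706 and 607 in lec1-1 seed and 6.9 and 63.6 in WT seed, and NAI1 gave 454 and 225 in lec1-1 seed and 81.3 and 64.4 in WT seed.

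The older AtGenome1 chip held 15 of the named genes, 14 of them lower calls, in mid-maturation seed, a stage name that the ATH1 samples do not use. Its values are differences between matching and mismatching probes, each group is 1 sample on 2 arrays, and no test was made. Size alone was read, with all 4 pairs of arrays on 1 side and at least 2-fold apart above a floor of 250. By this rule 7 of the 14 were lower in lec1 at mid-maturation, against 5.76% of the 6509 probe sets above the floor. Another 4 of the 14 were higher, against 5.75% of the 6509. AT1G04660 gave 3897 and 3955 in lec1 seed, against 29241 and 27089 in WT seed. AT2G34700 gave 12406 and 12412 in lec1 seed, against 34609 and 29084 in WT seed. NCRK gave 3306 and 3413 in lec1 seed, against 8668 and 8581 in WT seed, and SAH7 gave 504 and 839 in lec1 seed, against 6390 and 7171 in WT seed. These 4 genes were lower on that chip as at the cotyledon stage on ATH1. At 24 hours on AtGenome1 NCRK gave -112.3 and 41 in lec1 seed and 317.9 and 328 in WT seed. Its signal at mid-maturation was thus above that at 24 hours in both genotypes. At later ATH1 stages SAH7 was called higher in lec1-1, at mature green (1.33 log2) and at post-mature green. AT1G04660, AT2G34700 and NCRK were called lower on ATH1 at mature green.

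The 4 higher genes at mid-maturation were lower calls at the cotyledon stage on ATH1. AT5G59170 gave 18418 and 18456 in lec1 seed, against 6818 and 9031 in WT seed. LTI30 gave 2509 and 2181 in lec1 seed, against 674 and 669 in WT seed. ATOEP16-2 gave 5005 and 5067 in lec1 seed, against 904 and 921 in WT seed, and AT1G09750 gave 5042 and 5166 in lec1 seed, against 2211 and 2122 in WT seed. For ATOEP16-2 the direction on AtGenome1 is opposite to that on ATH1 from the cotyledon stage on. At 24 hours 0 of the 14 were higher by size, against 3.23% of probe sets above the floor. Lower by size were 3 of the 14, against 2.41%, namely SAH7, AT2G12400 and AT2G02780. On ATH1 at 24 hours SAH7 averaged 519.6 in lec1-1 and 1651 in WT seed, and AT2G12400 averaged 377 in lec1-1 and 951 in WT seed. None of the 3 genes, AT2G02780 included, was called on ATH1 at 24 hours.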

How the data were processed

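Per the labels, total RNA was made into biotinylated cRNA and hybridised to Affymetrix chips. The authors deposited 1 linear intensity per probe set, computed for ATH1 in Microarray Suite 5.0 with a target of 500 and for AtGenome1 in Suite 4.0 with a target of 2500, per the labels. The AtGenome1 descriptions name ATH1, while their titles name AtGenome1. Precision is limited by there being 2 arrays a group.

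From these, log2(signal + 50) was tested with limma 3.58.1 in R 4.3.3 (lmFit, and eBayes with an intensity trend), checked on simulated data. All 20 ATH1 arrays entered 1 model with a mean for each of 10 groups. Control probe sets, and those that reached 100 on fewer than 2 arrays, were dropped, which left 18459 of 22810. Tests were two-sided, adjusted by Benjamini-Hochberg over the probe sets of a contrast, with a threshold of 0.05. The ± after a log2 difference is its moderated standard error (n = 2 arrays per group). The late WT groups share in this estimate of the spread. P-values measure the spread between these arrays. A bound "at least N-fold" is the geometric mean of the bright group over 100, where both arrays of the other group were below 100.

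Genes were named through the platform annotation in GEO, with symbols updated from RefSeq (TAIR10.1), which gave 13513 probe sets 1 gene, 503 several and 8730 none. Roles of genes known by locus only are background knowledge. A gene could be named where a probe set of that gene alone was called. Array values are given in full for the 16 named genes with the largest drops and all named higher calls. Probe sets without a name, among them the one with the largest drop (-5.83), are not described one by one. For each interaction up to 4 genes, and up to 3 members of a list, were named by smallest adjusted p, with markers of seed parts. The members and lists were chosen with earlier results of these data known. List, family and stage-class counts have no test. Families were counted by matching words in gene symbols and synonyms, so members without such a name are missed. Replicate numbers did not pair the samples, as given in the closing section. No sequence is shown, since the tables used here hold none.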

Additional observations from a re-analysis of the deposited data

Results flagged for a closer look

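The lec1-1 effect differed between stages, by interaction contrasts in the limma model. The sizes given are on the log2(signal + 50) scale and, for genes with dim groups, depend on that offset. Between 24 hours and the cotyledon stage it differed for 58 probe sets (0.314% of those tested), 16 with a higher and 42 with a lower difference at the cotyledon stage. The genes with the smallest adjusted p were AT2G34700 (-4.91 log2, adjusted p = 4.88e-06), AT5G22810 (-5.21, 4.88e-06), AT3G54940 (-3.88, 1.86e-05) and AT3G24250 (-6.61, 2.32e-05). At 24 hours these 4 genes gave between 5.5 and 227 in lec1-1 seed and between 3.2 and 141 in WT seed.

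Between the cotyledon and mature green stages the effect differed for 3414 probe sets (18.5%), 1971 with a higher and 1443 with a lower difference at mature green. THI2.1, a thionin gene of defence, turned by 8.24 (adjusted p = 2.28e-08). It gave 913 and 652 in lec1-1 seed and 2648 and 2273 in WT seed at the cotyledon stage, without being called, and 14634 and 8276 in lec1-1 seed and 136 and 17 in WT seed at mature green. AT2G47780, of the rubber elongation factor family found on lipid droplets, turned by 6.19 (3.82e-09). It gave 17.9 and 72.7 in lec1-1 seed and 129.8 and 95.6 in WT seed at the cotyledon stage, and 5529.7 and 4942 in lec1-1 seed and 105 and 56.5 in WT seed at mature green.

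AT3G08030, for a cell wall protein of the DUF642 family, was a lower call at the cotyledon stage and a higher one at mature green, with a difference between stages of 2.95 (1.25e-07). It gave 908 and 860.1 in lec1-1 seed and 1569.5 and 1836 in WT seed at the cotyledon stage, and 5359 and 4487 in lec1-1 seed and 1182 and 1118 in WT seed at mature green. AT2G41990 turned the other way, by -4.02 (2.36e-07). It gave 3362 and 3620.2 in lec1-1 seed and 2504 and 2386 in WT seed at the cotyledon stage, and 137 and 194 in lec1-1 seed and 1821 and 3146 in WT seed at mature green.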

How the results depend on the processing

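The 131 cotyledon-stage calls became 326 on the 4 cotyledon-stage arrays alone (25.2% of them higher, against 9.16% with all arrays), 266 on the 10 arrays of early seed (20.7% higher), 238 with a floor of 100 (20.2% higher) and 83 with the lot covariate (16.9% higher), and 45 to 69 with 1 array left out. The other alternatives gave 89 to 152. The difference of the effect between 24 hours and the cotyledon stage had 58 calls, 115 with a floor of 100, 126 on the early seed arrays, 33 without the intensity trend and 26 to 38 with 1 array left out. The difference between the cotyledon and mature green stages had 3414 calls, and 2786 to 3768 in other settings or 2306 to 2540 with 1 array left out. Of the 131 calls, 33 passed with each array left out, 32 of them lower, and none of the 131 changed direction in any of 15 settings. Among list medians, LEA genes (5 settings), endosperm (lot covariate) and the single embryo patterning gene (without WT replicate 1) changed sign. With the replicate number as a block, 125 were called at the cotyledon stage, and 72 and 3052 in the differences between stages. Same-numbered arrays of the 2 genotypes did not deviate together at the cotyledon stage (r = -0.0376), nor at mature green (0.0303) and post-mature green (0.0140), and only weakly at 24 hours (0.131), so the numbers were not taken to pair samples. Motifs in promoters were not run. With 2 arrays a group, small differences and dim probe sets are the least certain, and for genes dim in 1 group the log2 value depends on the offset.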
